A study of Mus musculus with 9 samples.

Results

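The genes described here encode the proteins of the cytosolic ribosome. They were taken by name: every row of the deposited array table whose single gene symbol was a ribosomal protein symbol of the Rpl or Rps families, or Rplp0, Rplp1, Rplp2 or Rpsa, with Rps6k kinases and pseudogenes left out. This gave 105 rows (probe sets) of 49 genes, out of 34945 rows and 18193 genes with a single symbol and 45101 rows in all. The large subunit held 48 rows of 26 genes and the small subunit 57 rows of 23 genes.

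Whole colons from 9 samples were profiled on Affymetrix mouse expression arrays. The 5 mutant samples were Rosa26-CreERT2-Ptch1fl/fl, in which Cre deletes exons 8 and 9 of Ptch1, the receptor that restrains Hedgehog signalling. The 4 wildtype samples were Rosa26-CreERT2-Ptch1+/+. All 9 thus carried the tamoxifen-inducible Cre at Rosa26, came from a cross of C57BL/6 with Balb/c, were injected with 1 mg tamoxifen on each of 5 days and were taken at day 12. The Rosa26 promoter is active in most cell types and the deletion was body-wide, not limited to the colon. The labels give no ages and do not say whether the samples were separate animals, so the p-values below reflect sample-to-sample spread that may be technical. Array numbers in the titles averaged 4.2 for mutants and 8 for wildtypes, so number and group were partly tied. Array medians lay between 53.8 and 54.7 intensity units, and their number limits the precision.

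A ribosome has a small subunit, which binds the mRNA and decodes it, and a large subunit, which joins amino acids. Both are made in the nucleolus from ribosomal RNA and imported proteins, and each protein is normally needed in equal number. Ribosomal protein mRNAs are among the most abundant in most tissues, and many begin with a run of pyrimidines, the 5′ terminal oligopyrimidine (TOP) sequence, through which growth signals set their translation. In the colon, dividing crypt cells have a high demand for ribosomes.

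As examples, the bases around the annotated start of transcription are printed for genes with a row past or next to the test threshold given below. Only windows that held a motif were taken, so they do not show how common it was. No window is printed for Rps20, Rpsa, Rps14, Rps3, Rpl37a or Rps4l. Rpl35, the large subunit gene with 6 rows, and Rps27l, the gene whose median row differed least, were added. Each window runs from 20 bases before the start to 10 bases after it, 5′ to 3′, from RefSeq promoters on GRCm38.p6. Capitals mark a C followed by at least 4 bases that were each C or T, and in Rps19 a palindrome of 10 letters known from promoters of genes active in most cells.
Rps18, chr17:33955656-33955685, minus strand: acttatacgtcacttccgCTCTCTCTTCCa
Rps9, chr7:3704021-3704050, plus strand: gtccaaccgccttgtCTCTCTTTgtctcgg
Rps24, chr14:24490658-24490687, plus strand: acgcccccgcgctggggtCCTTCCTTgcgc
Rps10, chr17:27635235-27635264, minus strand: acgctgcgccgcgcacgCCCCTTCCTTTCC
Rps19, chr7:24884572-24884601, plus strand: agcactccgaaaTCTCGCGAGActcgacgc
Rpl35, chr2:39005122-39005151, minus strand: gaagtcggccccgccCTTTCCTCTTTCTCT
Rps27l, chr9:66946066-66946095, plus strand: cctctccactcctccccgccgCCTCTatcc
Of the 49 genes, 43 had an entry among the RefSeq promoters, with 51 annotated starts. The pyrimidine run, searched on the transcribed strand from 5 bases before to 10 bases after the start, was found at 21 of these 51 starts (41.2%) and at 18.3% of 32851 promoters in all. CCGGAA, searched on both strands over 250 bases before and 50 after the start, was in 54.9% of the ribosomal protein promoters and 14.9% of all promoters. The palindrome in capitals in Rps19 was in 11.8% and 0.466%, and TATAAA, on both strands, in 11.8% and 13.6%. CCGGAA can overlap the run. A match is a description of the letters. The large subunit had the run at 12 of 28 starts and the small subunit at 9 of 23.

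The names of rows have to be read with care in this table. Rows named for 1 gene shared how strongly they differed between the groups, but not in which direction or at what level. Over the 24 ribosomal protein genes with at least 2 rows (80 rows), the intraclass correlation of the rank of the absolute t was 0.238, against 0.16 for the rank of the mean level and 0.0473 for the signed t. Over all 9010 genes with at least 2 rows the same values were 0.228, 0.028 and 0.00677. Of 115 pairs of rows of 1 ribosomal protein gene 63 (54.8%) had the same sign of the difference, and of the 30 pairs with both rows at an unadjusted p under 0.05 it was 14 (46.7%). The level of the 105 rows had its median at percentile 63 of all rows and ranged from percentile 1.35 to 99.1, which goes against the high abundance these mRNAs are known for. For this reason the genes are described as rows named for them, by the strength of the difference alone, with no direction, fold or abundance. The same limit holds for the tissue: rows named for 10 colon epithelium genes had a median level percentile of 63.3, those for smooth muscle 33.2, for leukocytes 58.8 and for pancreas 26.8, so the labels of the tissue could not be checked through levels. Summed intensities of the leukocyte marker rows were 1064 to 1149 in mutants and 1040 to 1213 in wildtypes. Of these 6 rows 0 passed the test described below by limma and 1 was at an unadjusted p under 0.05. Over all rows with a single symbol 5.19% passed and 21.1% were at an unadjusted p under 0.05. Smooth muscle rows summed to 1744 to 2065 and 1597 to 2027, with 0 of 9 past by limma. At an unadjusted p under 0.05 were 4 of the 9 smooth muscle rows, against the same 21.1%. Rows for fibroblasts (12), endothelium (4), enteric nerves (6), pancreas (6) and skeletal muscle (5) had 0 past by limma and 0 at an unadjusted p under 0.05. Summed intensities of the 17 epithelium rows were 9466 to 12990 in mutants and 10680 to 13040 in wildtypes. Of these 17 rows 4 were past the threshold, against 5.19% of all rows with a single symbol. At an unadjusted p under 0.05 were 8 of the 17, against 21.1%. The part of the marker rows in the result was not tested. As rows of 1 gene do not share level or sign here, the sums do not measure the amount of any cell type. In whole tissue, fewer cells of a type and less RNA per cell cannot be told apart. Among 3 rows named Ptch1, limma adjusted p was 0.0761, 0.0894 and 0.834. Whether these probe sets lie in the deleted exons is not stated in the labels. Of the Hedgehog targets, the row of Gli1 was at 0.153 and did not pass, and the 4 rows of Hhip were at 0.0122 to 0.0124.

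The comparison of mutant with wildtype colons asks which transcripts differ after the deletion, and each row was tested on log2(intensity + 16) with limma. Rows named for ribosomal proteins differed between the groups more strongly than the array as a whole. At a limma adjusted p under 0.05 (Benjamini-Hochberg over all 45037 rows that are no controls), 12 of the 105 rows changed (11.4%). This compares with 5.19% of rows with a single symbol and 4.51% of all rows. The 12 rows belonged to 9 genes: Rps20, Rpsa, Rps14, Rps18, Rps19, Rps3, Rps9 and Rps24 of the small subunit and Rpl37a of the large. The groups did not overlap in 24 of 105 rows (22.9%), against 9.78% of rows with a single symbol. An unadjusted p under 0.05 was reached by 46 rows (43.8%), against 21.1%. With array number as a covariate 0 rows passed by limma, against 0.0666% of all rows. Leaving out wildtype replicate 3 also gave 0, against 0.855% of all rows, and leaving out wildtype replicate 4 gave 1 (0.875%). An unadjusted p under 0.05 was reached by 30 of the 105 rows in the fit on array number. Without wildtype replicate 3 it was reached by 36. The share of all rows at an unadjusted p under 0.05 is not given for these fits, so both counts stand without a comparison.

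The count in other settings is set here beside the share of everything tested that passed in the same setting. Fewer rows passed on leaving out mutant replicate 2 (5, against 1.55%), mutant replicate 3 (7, against 1.52%), mutant replicate 5 (7, against 3.37%) or wildtype replicate 2 (8, against 2.48%). Leaving out mutant replicate 1 gave 11 (3.05%), mutant replicate 4 gave 13 (4.64%) and wildtype replicate 1 gave 15 (5.72%). Array weights gave 22 rows (7.25%), and leaving out dim rows gave 18 of the 62 ribosomal protein rows that were left (11.2%). Pseudocounts of 1 and 64 gave 12 (4.02%) and 11 (3.92%), quantile normalization 13 (4.46%), median centring 12 (4.36%) and eBayes with trend and robust 11 (4.09%). With 1 value a gene, 8 of 49 genes passed by their brightest row (8.1%) and 7 by the mean of their rows (6.09%). The mean can cancel where rows of a gene differ in sign, so it does not measure their strength. At a threshold of 0.01 the count by limma was 0, against 0.215% of all rows.

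**Figure D1:**
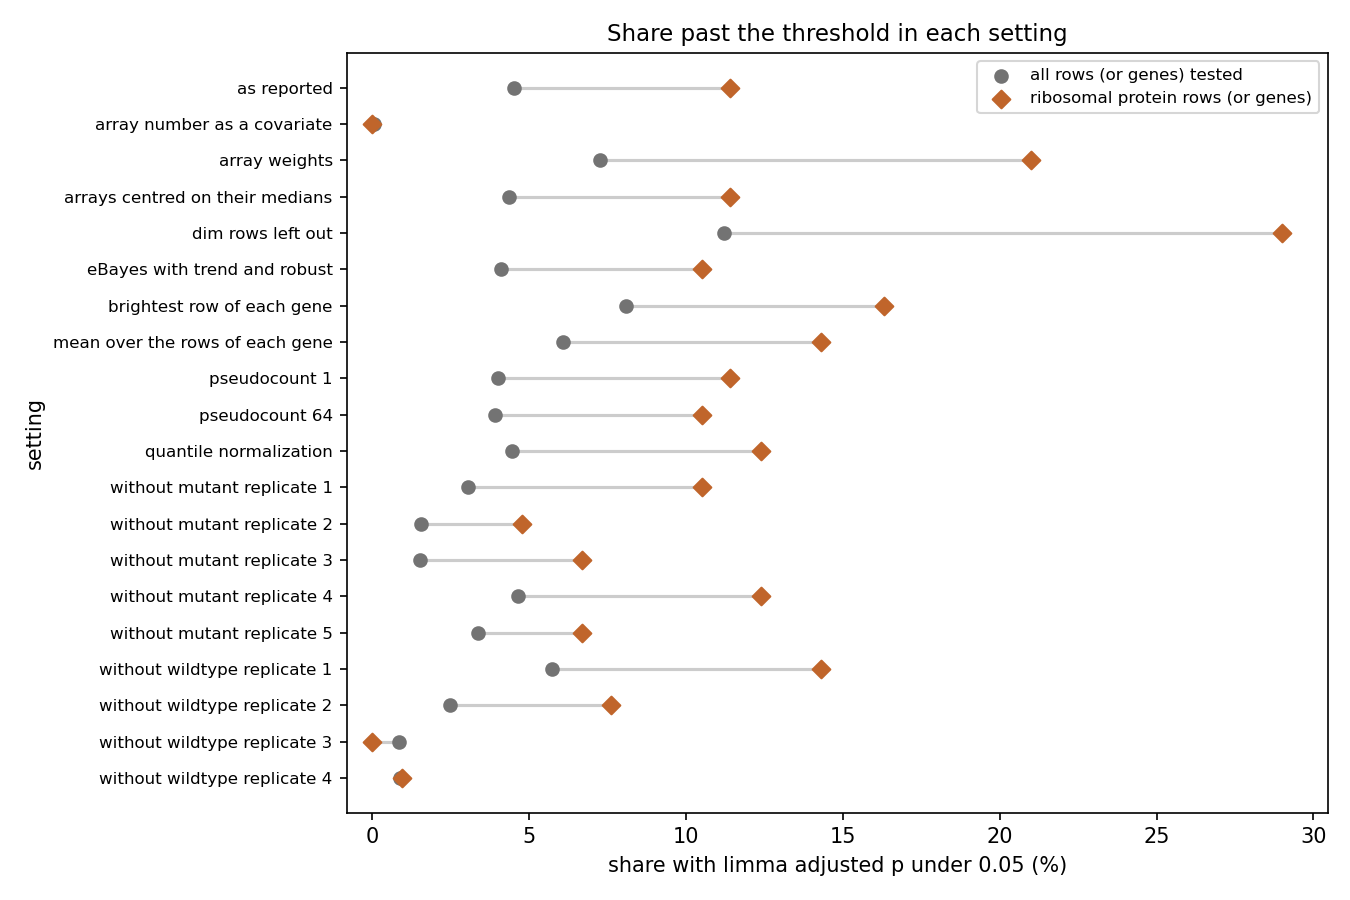
Share of rows (genes in the 2 settings that combine rows of a gene) with a limma adjusted p under 0.05 on the x axis, for the ribosomal protein rows (diamonds) and everything tested (circles), in each setting on the y axis. As reported, the shares were 11.4% and 4.51%, and in 17 of 19 other settings the diamond lies to the right of the circle; the exceptions are array number as a covariate and the fit without wildtype replicate 3.

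Ranks of the absolute t show the same without a threshold. The percentile of each row was taken among the 34945 rows with a single symbol, so that 50 is the middle of the array. The median ribosomal protein row was at percentile 75.7, with quartiles of 56.6 and 88.6. Of the 105 rows, 54 (51.4%) lay above percentile 75, 24 (22.9%) above percentile 90 and 19 (18.1%) at or below percentile 50. Taking the median row of each gene, the 49 genes had a median percentile of 77.3, against 49 for all genes. The 25 genes with a single row had a median of 77.9, and the 80 rows of the other 24 genes had 74.2. Rows at higher levels pass the test more often, and the ribosomal protein rows stood above the array at levels both above and below percentile 50. Above it 12 of 64 rows passed (18.8%, against 9.37% of all single-symbol rows there), with a median percentile of 84 against 64.2. Below it 0 of 41 passed by limma (0.852% of all single-symbol rows there did), 6 (14.6%) were at an unadjusted p under 0.05, against 8.4%, and the median percentile was 55.4 against 38.4.

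The subunits had like medians and unlike upper ends. The median percentile was 74.5 for large subunit rows and 76.5 for small subunit rows, and 76.4 and 78.1 over genes. Past the threshold were 1 of 48 large subunit rows (2.08%) and 11 of 57 small subunit rows (19.3%), on either side of the 5.19% over rows with a single symbol. Above percentile 90 lay 6 large subunit rows (12.5%) and 18 small subunit rows (31.6%). At an unadjusted p under 0.05 the counts were 20 (41.7%) and 26 (45.6%). Groups did not overlap in 7 large (14.6%) and 17 small subunit rows (29.8%). In all 19 other settings the small subunit had the higher median, by 1.44 to 16 percentile points, and in 17 of them more of its rows passed. The difference between the subunits was described and not tested, and rows of 1 gene share their target.

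**Figure D2:**
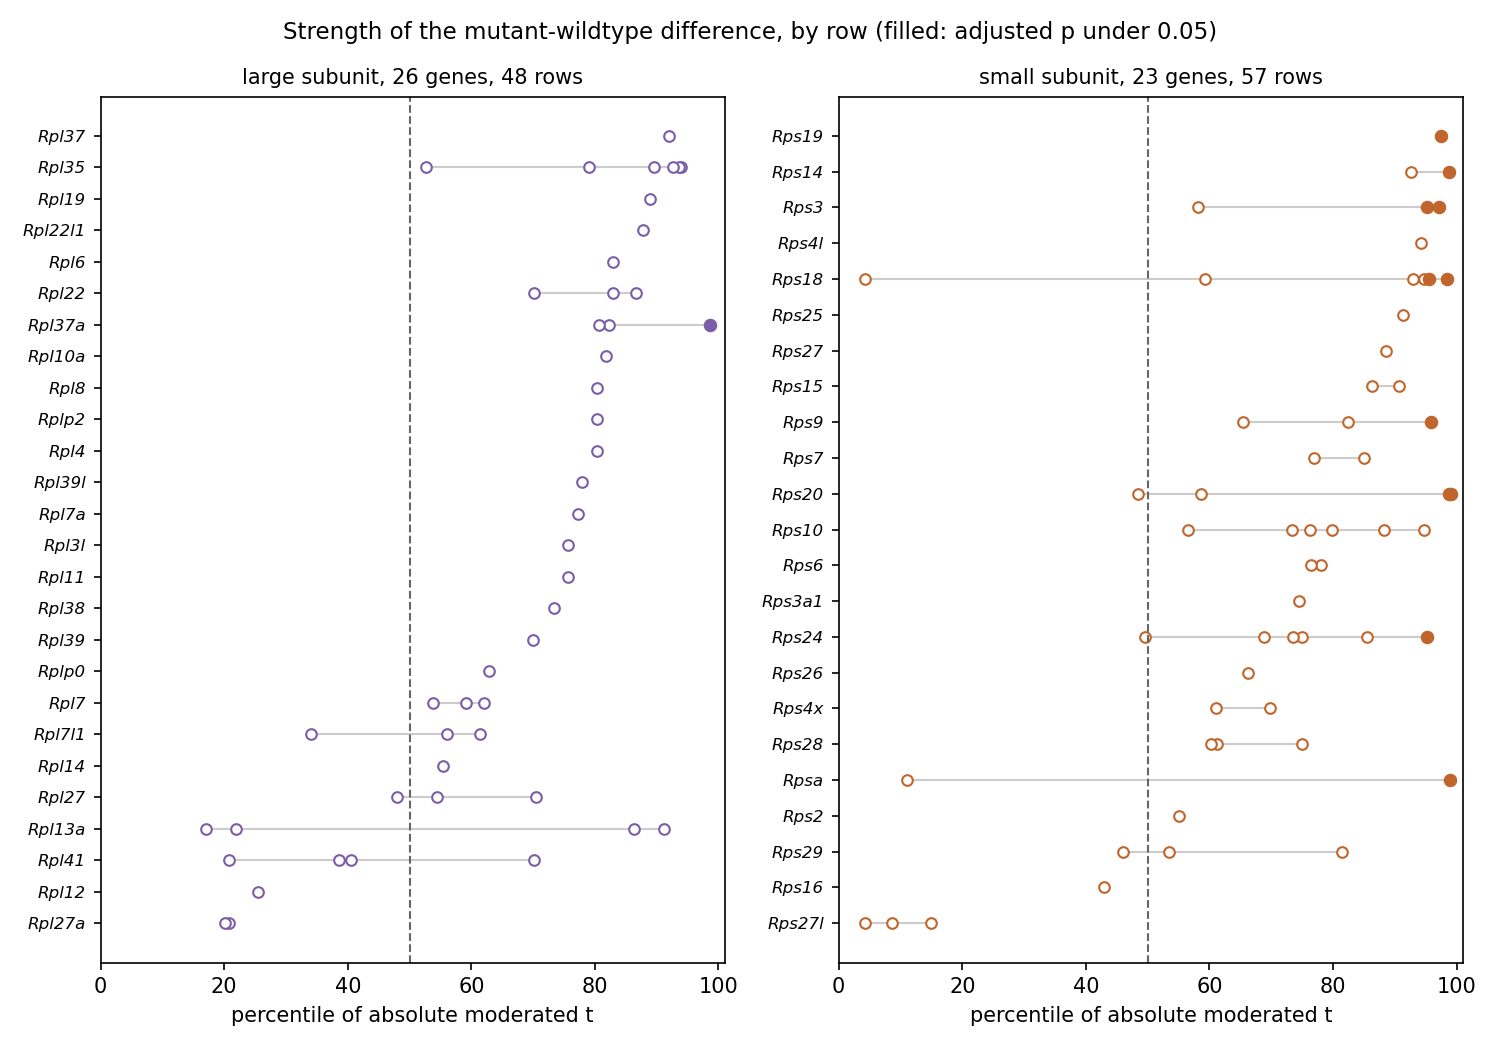
Percentile of the absolute moderated t among rows with a single symbol (x axis) for each row of the 26 large subunit genes (left) and 23 small subunit genes (right), with genes ordered by their median row. Filled points have a limma adjusted p under 0.05: 1 of 48 on the left and 11 of 57 on the right, and most points in both panels lie right of the dashed line at 50.

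Values by array are given with the sign of the difference removed. They are distances from the wildtype mean in residual SDs of the row, turned so that the mutant mean is positive, so the side on which mutants lie is fixed and only the distance and the spread of the groups are data. Rps20, a protein of the head of the small subunit, had the strongest row (1421935_at). Its mutant arrays, replicates 1 to 5, lay at 3.01, 4.37, 4.14, 5.48 and 4.2, and its wildtype arrays, replicates 1 to 4, at 0.281, 1.07, -0.369 and -0.986. The groups were apart by 1.94, the widest gap among the 12 rows (absolute t 6.32, limma adjusted p = 0.0158). A second Rps20 row (1450417_a_at) had mutants at 4.08, 3.89, 2.15, 5.28 and 4.42 and wildtypes at 0.268, 0.881, -1.35 and 0.203. Mutant replicate 3 was the nearest to the wildtypes, and the groups stayed apart by 1.26 (limma adjusted p = 0.0183). The other Rps20 rows were at percentiles 58.7 and 48.4. With all 4 rows averaged, Rps20 was at a limma adjusted p of 0.991. As rows of 1 gene do not share a sign in this table, such an average can cancel and does not measure strength.

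Rpsa, a small subunit protein also known as a laminin receptor, had 2 rows far from each other in strength. In the stronger (1448245_at) the mutants lay at 3.82, 4.73, 4.86, 4.86 and 2.58 and the wildtypes at 1.86, -0.899, 0.0105 and -0.967. Wildtype replicate 1 and mutant replicate 5 faced each other across a gap of 0.727 (absolute t 6.22, limma adjusted p = 0.0164). The other Rpsa row was at percentile 11.1 (limma adjusted p = 0.95). Rps14, a protein of the platform of the small subunit, had both its rows high, at percentiles 98.7 and 92.6. In the stronger (1437706_x_at) mutants lay at 3.14, 4.59, 4.84, 3.81 and 3.27 and wildtypes at 0.905, 1.48, -1.39 and -0.993. Wildtype replicates 1 and 2 lay toward the mutants and replicates 3 and 4 away from them, with no overlap (limma adjusted p = 0.0187).

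Rps18, which lies in the head of the small subunit, had 6 rows that ran from percentile 4.33 to 98.5 with a median of 93.8. Past the threshold were 1435712_a_at (limma adjusted p = 0.021) and 1455572_x_at (0.0452). In the first the mutants lay at 2.21, 3.61, 5.2, 3.45 and 4.55 and the wildtypes at 1.57, -0.0565, -1.07 and -0.451. Mutant replicate 1 and wildtype replicate 1 were closest, with a gap of 0.634. In 4 of the 6 rows the groups did not overlap, against 9.78% of all rows with a single symbol. Another Rps18 row was just short of the threshold (0.0513).

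Rps3, which lines the entry of the mRNA channel, had 2 of 3 rows past the threshold, against 5.19% of all single-symbol rows. The stronger (1435151_a_at) had mutants at 3.57, 5.02, 2.24, 2.7 and 3.02 and wildtypes at 0.701, 0.517, -1.55 and 0.336. Here wildtype replicate 3 stood off from the other wildtypes, on the side away from the mutants (limma adjusted p = 0.0306). In the other (1455600_at) mutants lay at 1.39, 2.91, 3.75, 4.66 and 1.59 and wildtypes between -0.635 and 0.65, so the mutants were more spread than the wildtypes (limma adjusted p = 0.0472). Rps19, mutated in some patients with Diamond-Blackfan anaemia, had 1 row. Its mutants lay at 3.1, 3.63, 4.62, 2.23 and 3.49 and its wildtypes at 0.575, -1.96, -0.0207 and 1.41. The wildtypes were widely spread and the groups still did not overlap (limma adjusted p = 0.028).

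Rps9 and Rps24 had 1 row each past the threshold. In Rps9 (1433689_s_at) mutants lay at 1.98, 2.49, 4.27, 2.86 and 3.43 and wildtypes at 1.77, -0.688, -0.787 and -0.295. Wildtype replicate 1 nearly reached mutant replicate 1, across 0.212 (limma adjusted p = 0.0404). In Rps24 (1453362_x_at), the only one of the 12 rows whose groups overlapped, mutant replicate 4 at 1.3 lay below wildtype replicate 2 at 1.71 (limma adjusted p = 0.0471). The other 5 Rps24 rows were at percentiles 49.5 to 85.5. These weaker calls moved with the processing: the Rps9 row passed in 8 of 18 other settings, Rps24 in 10 of 19, and the second Rps18 and Rps3 rows in 6 and 7 of 18. The first Rps20 row passed in 14 of 18, Rpsa and Rps14 in 16 of 19 and Rps19 in 14 of 19. In these counts the setting that averages the rows of a gene enters with the p-value of the average. With array number as a covariate, or on leaving out wildtype replicate 3, none of these 12 rows stayed under a limma adjusted p of 0.05.

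Rpl37a, a zinc-binding protein of the large subunit, was the only large subunit gene with a row past the threshold. All 3 of its rows were at an unadjusted p under 0.05, against 21.1% of all rows with a single symbol. In the strongest (1460543_x_at) the mutants lay at 4.15, 4.79, 4.73, 2.57 and 3.56 and the wildtypes at 0.246, 1.47, -0.495 and -1.22. The groups did not overlap, with a gap of 1.09 between mutant replicate 4 and wildtype replicate 2 (limma adjusted p = 0.0183). The row passed in 15 of 18 alternatives, counted in the same way. Its other rows were at percentiles 80.7 and 82.2.

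**Figure D3:**
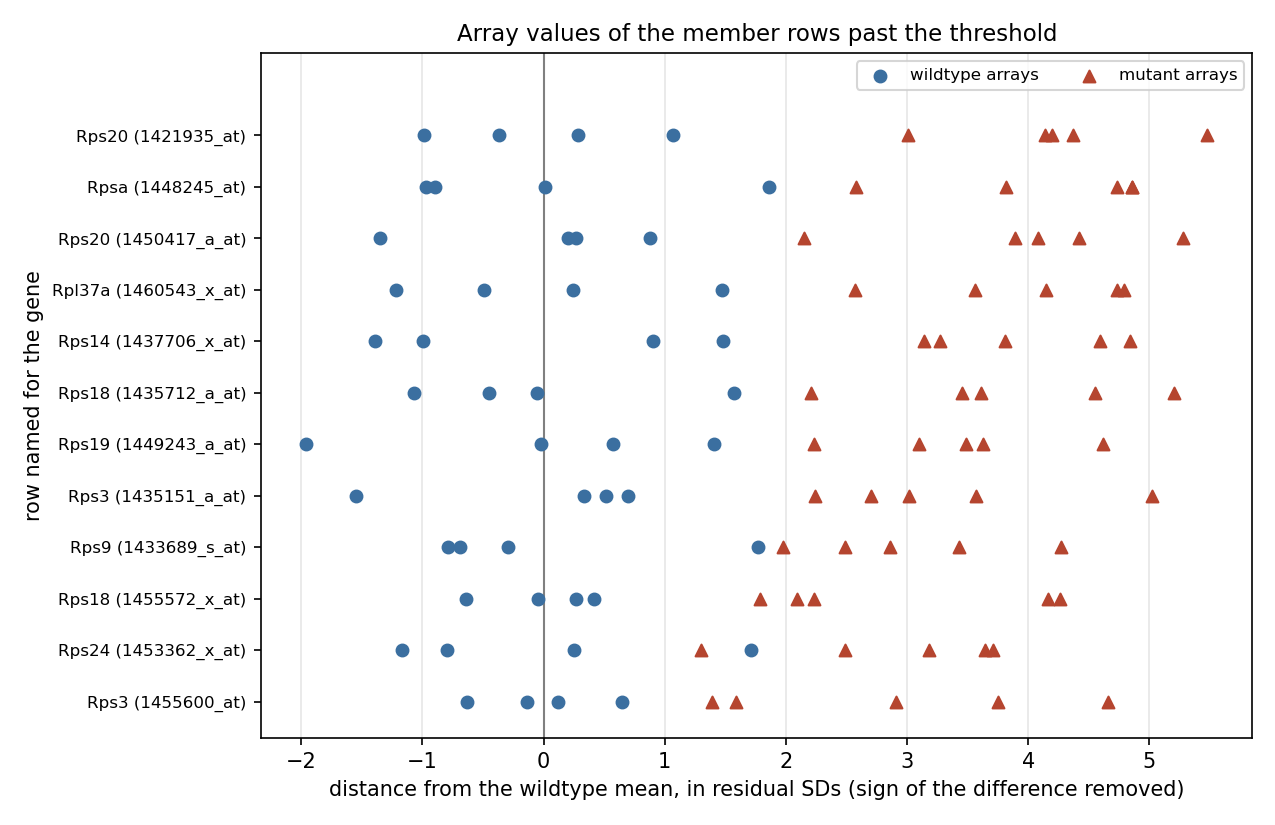
Array values of the 12 rows past the threshold: distance from the wildtype mean in residual SDs of the row (x axis, sign of the difference removed) for 4 wildtype arrays (circles) and 5 mutant arrays (triangles), 1 row of the table per line. Circles and triangles are apart in 11 of 12 lines and overlap in Rps24, and the gap is widest, at 1.94, in the first Rps20 row. The rows were chosen by their p-value, which favours groups that do not overlap.

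Next to the threshold on its far side stood Rps10 (limma adjusted p = 0.0511), a small subunit protein that is ubiquitinated when ribosomes collide, another Rps18 row (0.0513) and Rps4l (0.055), a paralog of Rps4x. In the Rps10 row mutants lay at 2.2, 2.68, 3.07, 2.82 and 3.14 and wildtypes at 0.548, 1.08, -1.9 and 0.274, with no overlap. Rps10 had 6 rows in all, at percentiles 56.6 to 94.7, all above the middle of the array. Averaged over its rows, Rps10 was at a limma adjusted p of 0.974, with the same limit as for Rps20. Among large subunit genes Rpl35, which lies near the exit of the nascent chain, came closest as a gene. Of its 6 rows 5 were at an unadjusted p under 0.05, against 21.1% of all rows with a single symbol. Its percentiles ran from 52.7 to 93.9, and its lowest limma adjusted p was 0.0603. In that row mutants lay at 2.31, 4.57, 2.64, 0.899 and 2.79 and wildtypes at -0.181, 0.724, 0.491 and -1.03, so mutant replicate 4 sat next to wildtype replicate 2.

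The genes with fewer than 3 rows named in this paragraph were chosen to show the range after their values were seen. Rpl37 was at percentile 92, Rps25 at 91.4, Rpl19 at 88.9 and Rps27 at 88.6, each with 1 row, and both rows of Rps15 were above 86. Rps6, the protein phosphorylated by S6 kinases, had rows at 76.5 and 78.1. Of the stalk proteins, which recruit translation factors, Rplp2 was at 80.3 and Rplp0 at 62.8. Rpl13a, a member of an interferon-controlled translation inhibitor, had 4 rows that fell into pairs, at 17 and 21.9 and at 86.3 and 91.1. Rpl22 had 3 rows between 70.2 and 86.6, Rpl7 3 between 53.8 and 62.1, Rpl27 3 between 48 and 70.5, Rps28 3 between 60.3 and 74.9 and Rps29 3 between 46 and 81.5. At the low end were Rpl27a, with rows at 20.2 and 20.8, Rpl12 at 25.5, and Rpl41, the smallest ribosomal protein, with 4 rows from 20.7 to 70.1. The 5 weakest rows were the 3 of Rps27l, a paralog of Rps27 known as a p53 target, at 4.28, 8.68 and 15, a row of Rps18 at 4.33 and a row of Rpsa at 11.1.

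The 6 paralogs with tissue-limited or other roles (Rpl3l, Rpl7l1, Rpl22l1, Rpl39l, Rps4l and Rps27l) had 10 rows. By limma 0 of these passed, 2 (20%) were at an unadjusted p under 0.05, near the 21.1% of all single-symbol rows, and their median percentile was 58.7. The 95 rows of the core ribosomal proteins had a median of 76.5, and 12 of them (12.6%, against 5.19%) passed. Within the paralogs Rps4l was at 94.3, Rpl22l1 at 87.8, Rpl39l at 77.9 and Rpl3l, known from muscle, at 75.7, while Rpl7l1 ranged from 34.1 to 61.4.

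The median differed between types of probe set, most of all in the large subunit. Probe sets whose probes may match other sequences (suffix x), which are common for genes with many pseudogenes, made up 40 of the 105 rows, against 2038 of the 34945 with a single symbol. Of these 40 rows 4 (10%) passed, against 5.25%, with a median percentile of 73.3 against 53.5. Of the 34 rows with the plain suffix 3 (8.82%) passed, against 4.69%, with a median of 69.4 against 48.3. Among rows with the suffix a, for probe sets that match several transcripts of a gene, it was 4 of 28 (14.3%), against 7.35%, and 80.3 against 56.1. Large subunit rows had medians of 55.7 with the plain suffix, 80.3 with the suffix a and 76.2 with the suffix x, and 12.5%, 64.3% and 50% of them were at an unadjusted p under 0.05. Small subunit rows had medians of 80.3, 82.5 and 69.3 in the same order. Ribosomal proteins have many near-identical pseudogenes, so a row may hold signal from such copies.

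Medians over the 105 rows were taken for each array. Each row was turned so that its mutant mean was positive, so a separation of the groups was largely fixed in advance. Mutant medians were 1.31, 1.53, 1.46, 1.35 and 1.18 residual SDs from the wildtype mean for replicates 1 to 5, and wildtype medians were 0.353, 0.151, -0.237 and -0.205 for replicates 1 to 4. Over all rows with a single symbol, turned in the same way, the mutants were at 0.705 to 0.949 and the wildtypes at -0.0848 to 0.206. Wildtype replicate 1, the array numbered 5, was the wildtype nearest to the mutants in both. Within the groups, medians over the 105 rows were lower at higher array numbers in part only, as numbers 1 and 10 broke the order. Mutants numbered 1, 3, 4, 6 and 7 had 1.31, 1.53, 1.46, 1.35 and 1.18. Wildtypes numbered 5, 8, 9 and 10 had 0.353, 0.151, -0.237 and -0.205. Over all rows with a single symbol the mutants had 0.834, 0.934, 0.949, 0.828 and 0.705 in that order. The wildtypes had 0.206, 0.0156, -0.0815 and -0.0848. The part of array number in the difference was not tested within the groups, and the fit with it as a covariate is given above. For small subunit rows mutant medians were 1.38 to 1.7, and for large subunit rows 1.09 to 1.67.

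Rows of genes with and without the pyrimidine run had like medians. The 49 rows of the genes with a run had a median percentile of 76.5, with 4 past the threshold. The 42 rows of genes without one had 75.3, with 5 past. Over all rows with a single symbol 5.19% passed. Rows of the 6 genes without a promoter entry were in neither group. For CCGGAA the medians were 75.9 with and 75.7 without. Rps18, Rps9 and Rps24, whose windows are printed above, have the run and a row past the threshold. Rps27l, with the lowest median row of the 49 genes, also has the run, and so does Rps18 with its row at 4.33.

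Other genes of ribosome production and use were read from 7 lists. Fau, which encodes a fusion of a ubiquitin-like protein with the small subunit protein S30, is a ribosomal protein gene outside the naming rule, and its 1 row passed (limma adjusted p = 0.0184). The other translation lists had medians nearer to the array, while their shares of called rows varied. Mitochondrial ribosomal proteins, which build the separate ribosome of mitochondria, passed in 1 of 156 rows (0.641%), with a median percentile of 42.9. The row was Mrpl38 (0.0386 by limma). Its large subunit had a median of 42.2 and its small subunit 49.7, where 0 of 52 rows passed by limma and 8 were at an unadjusted p under 0.05. Nucleolar assembly factors passed in 1 of 70 rows (1.43%, median percentile 47.6), which was Pes1 (limma adjusted p = 0.0499), a factor of large subunit maturation. The next were Utp20 (0.0666) and Ebna1bp2 (0.0925), which did not pass.

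RNA polymerase I genes passed in 3 of 32 rows (9.38%, median 51.7). They were Polr1c (limma adjusted p = 0.0284) and 2 rows of Polr1d (0.0296 and 0.0323), subunits that polymerases I and III share. Initiation factors passed in 5 of 71 rows (7.04%, median 55.4), led by Eif1ax, which scans for the start codon (0.00915), and both Eif3e rows, of a subunit of the factor that binds the small subunit (0.0125 and 0.025). Eif5 (0.0462) and Eif4g2 (0.0472) completed them. Elongation and nascent chain genes passed in 3 of 28 rows (10.7%, median 58.6), but those rows belonged to Hnrnpa1, a splicing protein (limma adjusted p = 0.0308), and Nap1l1, a histone chaperone with 2 rows past (0.0368 and 0.0472), both known for mRNAs with a TOP sequence. Naca, of the nascent chain complex, was at 0.0585. Control genes passed in 4 of 61 rows (6.56%, median 41.7). These were Eif4ebp2, a repressor of the cap-binding initiation factor (limma adjusted p = 0.0293), the TOR subunit Mlst8 (0.0297) and the eIF2 kinases Eif2ak2 (0.0446) and Eif2ak1 (0.0459). At an unadjusted p under 0.05 were 39.3% of the elongation and nascent chain rows, close to the 43.8% of the ribosomal protein rows, 31% of the initiation rows, 28.1% of the RNA polymerase I rows, 19.7% of the control rows, 14.3% of the nucleolar assembly rows and 13.5% of the mitochondrial ribosomal rows, against 21.1% of all single-symbol rows. Beside list medians of 41.7 to 58.6, the ribosomal protein rows were at 75.7. The ribosomal protein rows also had a higher median level percentile, 63, against 33.3 to 53.4 in these lists. Rows at higher levels pass more often, as described above. The difference between lists, and the part of level in it, was not tested.

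**Figure D4:**
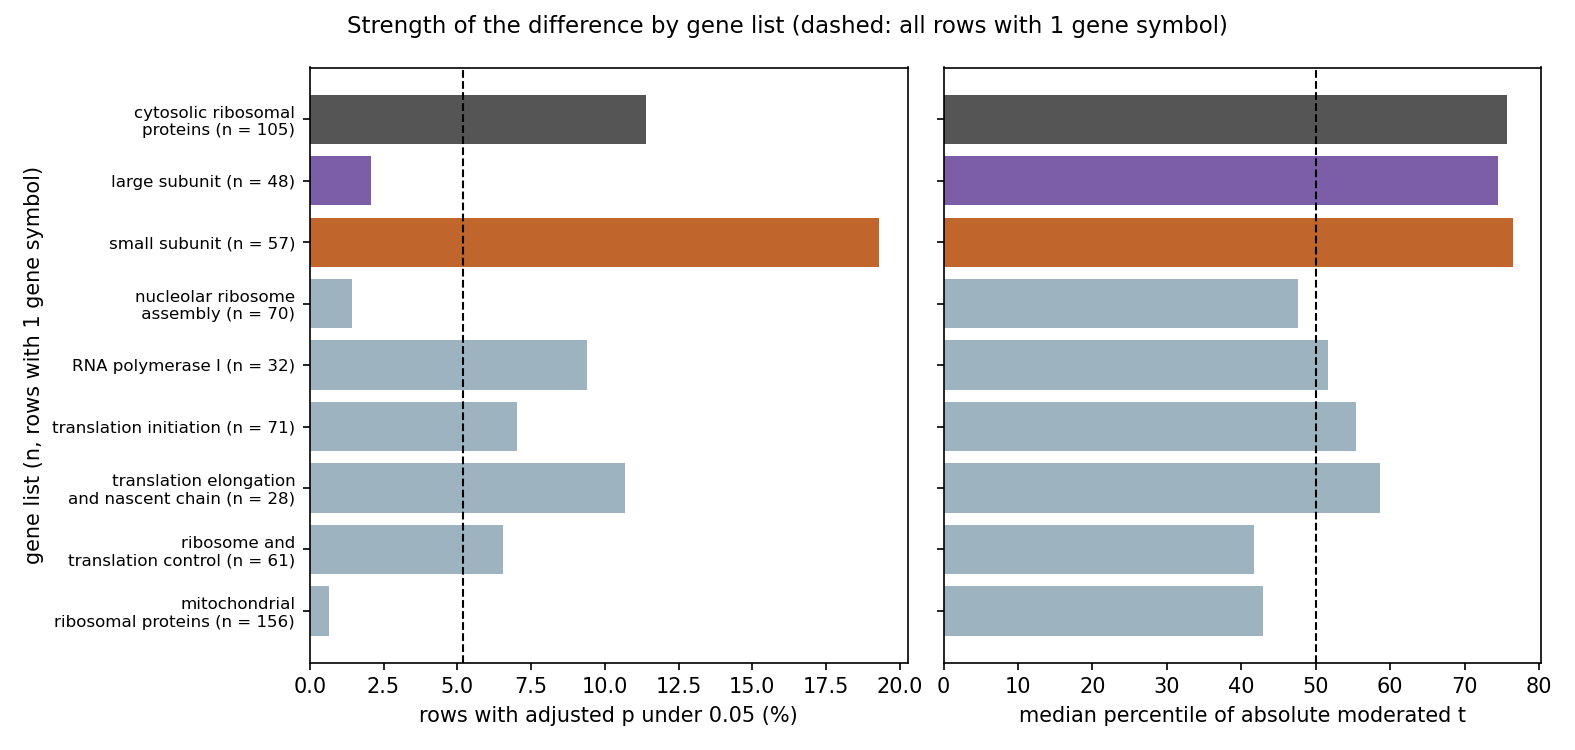
Share of rows with a limma adjusted p under 0.05 (left) and median percentile of the absolute moderated t (right) for the ribosomal protein rows, their subunits and 6 other lists of translation genes, with the number of rows in brackets. Dashed lines mark all rows with a single symbol (5.19% and 50); the median bars of the 3 ribosomal protein groups, 74.5 to 76.5, are the longest on the right, while on the left the large subunit is at 2.08% and the small subunit at 19.3%.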

How the data were processed

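Values were the authors' deposited probe set intensities on a linear scale (5.21 to 23117), for which the submitters' processing notes name Affymetrix Expression Console 1.1. How probes were summarised, background-corrected or filtered is not given in the sources used here. Arrays were labelled from 100 ng of RNA, per the labels' protocols. No further normalization was applied. After 64 control rows were left out, 45037 rows were tested as log2(intensity + 16) in R 4.3.3 by limma 3.58.1 (two-sided moderated t from eBayes, 7 residual and 2.26 prior degrees of freedom, no filter on low values, so all 105 rows were tested), with Benjamini-Hochberg adjustment. The fit was tested on simulated data. Symbols came from the platform annotation, and 932 rows with several symbols and 9160 with none were not named. By the rule, named genes were those with a row past the threshold, the strongest, weakest and nearest to it, genes with 3 or more rows, and up to 4 genes of each list with the smallest p. Other genes with 1 or 2 rows, such as Rpl37, Rps6 and the paralogs, were named outside this rule after their values were seen. The members and lists were chosen with earlier results of these data known. Alternatives were rows combined by gene, pseudocounts of 1 and 64, leaving out rows with a mean intensity under 64, trend and robust eBayes, array weights, quantile normalization, median centring, array number as a covariate, a threshold of 0.01 and leaving out each array.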

Additional observations from a re-analysis of the deposited data

Results flagged for a closer look

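Among the 15 rows past or next to the threshold and the median over the 105 rows, 32 groups of arrays were examined for a sample far from the rest, and 1 had one, where chance gives about 1 in 20 groups. In the stronger Rps3 row, wildtype replicate 3 lay at -1.55 residual SDs and the other wildtypes at 0.336 to 0.701. The gap was 0.838 of the range of the wildtypes, above Dixon's 95% value of 0.829 for 4 samples.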

How the results depend on the processing

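Of the 105 rows, 12 passed as reported. With array number as a covariate 0 passed by limma (30 at an unadjusted p under 0.05), with array weights 22, and at a threshold of 0.01 it was 0 (46 at an unadjusted p under 0.05). With the mean over the rows of each gene 7 of 49 genes passed. Leaving out 1 array gave 0 to 15 rows. The median percentile of all 105 rows was 64.4 with array number as a covariate and 72.4 to 76.6 without 1 array. That of large subunit rows was 56.2 with array number as a covariate, 67.7 without dim rows, 68.1 with trend and robust eBayes and 69.1 to 73.8 without 1 array. That of small subunit rows was 82.3 without dim rows, 83 with the brightest row of each gene and 74.1 to 79.5 without 1 array. The cause was not tested. Over all rows 2029 passed as reported, 30 with array number as a covariate, 3267 with array weights and 385 to 2577 without 1 array. The other settings left the count of ribosomal protein rows within 1.5 times. They left these medians within their jackknife SE (4.27 for all 105 rows, 3.7 for the large and 5.43 for the small subunit). The counts were not scaled to the number tested. Without dim rows 18 of 62 ribosomal protein rows passed by limma (29%), against 11.4% as reported. Of 278 recomputed p-values for the rows past or next to the threshold, 189 stayed on their side of it, 76 lost the call and 13 gained one. In the setting that averages the rows of each gene, these are p-values of the average and not of a single row. No paired analysis was possible because the labels give no replicate numbers.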

Other observations

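Beside the 105 rows, 110 rows of the array carried several gene symbols of which at least 1 was a ribosomal protein symbol, mostly of genes with pseudogenes or predicted copies. They held 43 ribosomal protein symbols, of which 28 had no row of their own. Of these 110 rows 14 passed by limma (12.7%), against 4.51% of all rows. Their median percentile of the absolute t among all rows was 82.1, where the 105 single-symbol rows were at 77.8 on the same scale. This was a description of rows that the naming rule left out, with no gene named from them.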
